A study of Drosophila melanogaster with 18 samples.

Results

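The odorant-binding protein (OBP) genes of *Drosophila melanogaster* were examined in 18 messenger RNA libraries from fly thoraces and heads. Members were taken by symbol, as every gene whose symbol in the count files starts with Obp and a digit, together with *lush*, which gave 46 of the 15682 symbols. Of the 46 genes, 43 had at least 1 count in at least 1 library, and *Obp50b*, *Obp50c* and *Obp57d* were listed at 0 in all 18. By known sites of expression, 3 members were grouped as antennal (*lush*, *Obp19a*, *Obp59a*), 1 as antennal and gustatory (*Obp56d*), 4 as genes of taste organs on mouthparts and legs (*Obp19b*, *Obp49a*, *Obp57d*, *Obp57e*), 7 as genes whose proteins are found in seminal fluid (*Obp8a*, *Obp22a*, *Obp51a*, *Obp56e*, *Obp56f*, *Obp56g*, *Obp56i*) and 1 as glial (*Obp44a*). No site was assigned to the remaining 30. Another 6 genes of the family carry older symbols in these files and fall outside the naming rule (*Pbprp1* to *Pbprp5* and *Os-E*, now *Obp69a*, *Obp19d*, *Obp83a*, *Obp84a*, *Obp28a* and *Obp83b*); they are given only beside the members.

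OBPs are small secreted proteins that bind hydrophobic ligands. In antennae and taste bristles, support cells secrete them into the lymph that bathes the dendrites of sensory neurons, where they carry or buffer odorants, pheromones and tastants. *lush* is required for the response to the male pheromone cis-vaccenyl acetate, and many other members are expressed outside sense organs, among them genes of the male accessory gland and ejaculatory duct whose products pass to females in the ejaculate.

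The study made a new flight muscle driver for GeneSwitch, a Gal4 fused to a steroid receptor domain. While using it, the authors met changes in gene expression after RU486 (mifepristone), the drug that switches GeneSwitch on. For mitochondrial genes the paper proposes that RU486 acts through its interaction with GeneSwitch, depending on context. Adult males of 3 stocks, 10 to 14 days old, were kept on normal food for 4 days and then for 10 days on food with 100 µM RU486 in ethanol or with ethanol alone (control). Thoraces were taken from *Act88F-GS-Gal4* flies, a selected line in which a promoter of the flight muscle actin gene *Act88F* drives GeneSwitch, and from w1118 flies, which carry no GeneSwitch, and heads were taken from *elav-GS-Gal4* flies, in which GeneSwitch is driven in neurons. Each of the 6 groups had 3 samples, which the labels only number; the p-values therefore measure the spread between these samples. Stock and body part changed together between heads and thoraces, so these 2 cannot be told apart in any comparison of heads with thoraces. The head files also list 0 unaligned reads and the thorax files 774393 to 2646573, so a difference in processing cannot be told apart from them either.

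Reads counted on genes came to 34020840 to 96176923 per library (median 62727340), and levels below are CPM (counts scaled to a common library size) after scaling all 18 libraries together by TMM. All 8 flight muscle genes of a marker list were lower in control heads than in control thoraces, with sums of 2796 to 3225 CPM and 8550 to 26889 CPM. The libraries differed in how much RNA of other organs they held. Summed over 18 antennal genes, the level was 86.7 to 127.4 CPM in head controls and 226 to 370 CPM in RU486 heads, and summed over 15 taste-organ genes it was 17.7 to 23.8 and 42.4 to 57.5 CPM. The same taste-organ sum was 8.98 to 13.3 CPM in *Act88F-GS-Gal4* control thoraces, 13.6 to 17.7 CPM in *Act88F-GS-Gal4* RU486 thoraces and 32.9 to 37.9 CPM over the w1118 thoraces. Summed over 13 accessory gland genes, the level was 555 and 125 CPM in head controls 1 and 2 against 0.523 CPM in head control 3 and 0.403 to 0.587 CPM in RU486 heads, where 6 of the 13 genes were at 0. It was 298 to 1011 CPM in 5 of the 6 w1118 libraries, 4.01 CPM in w1118 RU486 replicate 1 and 0.132 to 0.805 CPM in *Act88F-GS-Gal4* thoraces. The antennal sum was 23.4, 17.6 and 17.5 CPM in *Act88F-GS-Gal4* controls 1 to 3 and 36.1, 31.5 and 77.0 CPM in *Act88F-GS-Gal4* RU486 replicates 1 to 3, all above the controls. It was 36.1 to 41.4 CPM over the w1118 thoraces, where *Orco* was at 0.237 to 0.529 CPM. Much of the sum in thoraces was *Snmp1*, at 25.5 to 30.5 CPM in w1118, 7.38 to 9.79 CPM in *Act88F-GS-Gal4* controls and 14.9 to 16.8 CPM after RU486. Single antennal genes differed in the replicates in which they were high. The olfactory co-receptor *Orco* was at 0.102, 0.232 and 0.530 CPM in controls and 1.47, 0.140 and 2.66 CPM after RU486, above the controls in replicates 1 and 3 only. The antennal genes *Jhedup* (0.676, 0.430 and 0.795 CPM without and 4.21, 0.473 and 7.59 CPM with RU486) and *a5* (0, 0.0331 and 0 CPM without and 0.752, 0.0175 and 0.929 CPM with RU486) were likewise above the controls in replicates 1 and 3 only. The antennal gene *a10* (0.573, 0.0662 and 0.0294 CPM without and 3.33, 1.59 and 8.55 CPM with RU486) and the carbon dioxide receptor gene *Gr63a* (0.839, 0.265 and 0.324 CPM without and 1.12, 4.89 and 23.5 CPM with RU486) were above every control in all 3. *Gr63a* alone made up 23.5 of the 77.0 CPM of the antennal sum in RU486 replicate 3. Other genes of that list did not rise. *Gr21a* was at 0.0294 to 0.123 CPM without and 0.0167 to 0.0876 CPM with RU486. *Ir76a* was at 4.42 to 5.57 CPM without and 3.62 to 4.88 CPM with RU486. In bulk tissue, fewer cells of a type and less RNA per cell cannot be told apart.

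Members together took 1032 to 1286 CPM in *Act88F-GS-Gal4* control thoraces, 1724 to 2032 CPM in *Act88F-GS-Gal4* RU486 thoraces, 2234 to 2792 CPM in w1118 thoraces, 2316 to 3105 CPM in control heads and 3993 to 4049 CPM in RU486 heads. In every library 3 genes held most of this sum, 58.8% to 84.7% of it. Of the 46 members, 31 had a mean of at least 1 CPM in at least 1 group. Per kilobase of annotated exon, *Obp99c* had the highest mean level of all members in 5 of the 6 groups, between 922 ± 24.6 CPM per kilobase (SD, n = 3) in *Act88F-GS-Gal4* controls and 1386 ± 175 in *Act88F-GS-Gal4* RU486 thoraces. In RU486 heads *Obp99b* (1080 ± 257 CPM per kilobase), *Obp56d* (1068 ± 138) and *Obp99c* (949 ± 118) lay within their spread of each other. Second place differed between the groups: it was held by *Obp99b* in both w1118 groups (643 ± 218 in controls) and in control heads (917 ± 182), and by *Obp57c* in both *Act88F-GS-Gal4* groups (254 ± 17.7 in controls), all in CPM per kilobase.

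**Figure D1:**
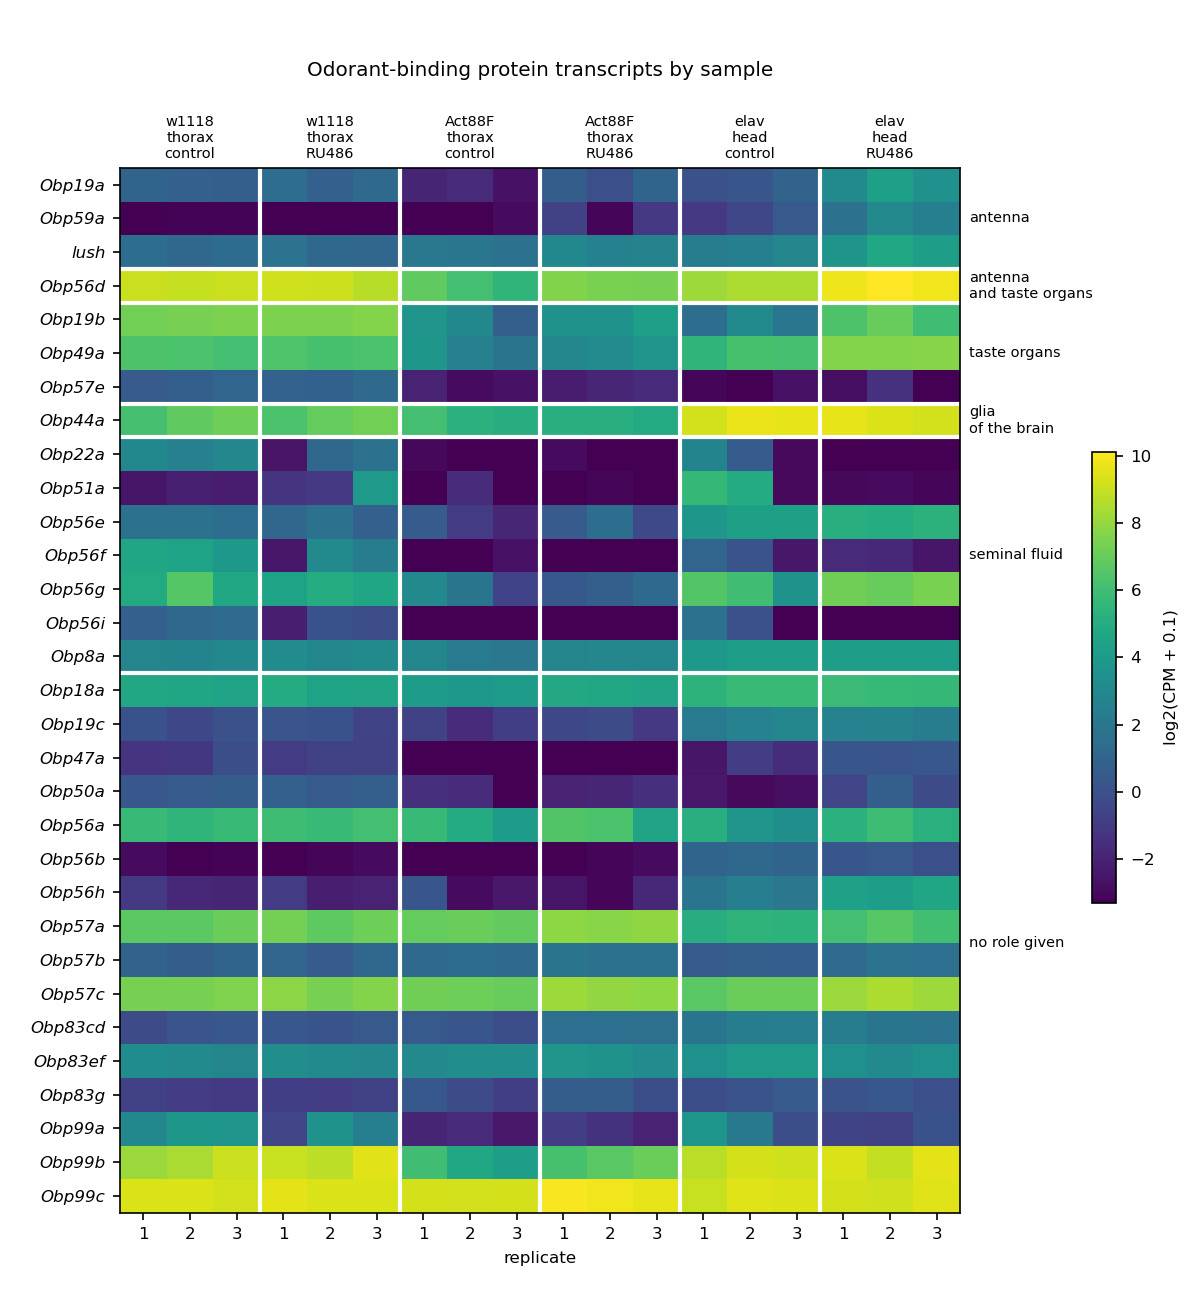
Levels of the 31 members with a mean of at least 1 CPM in at least 1 group, as log2(CPM + 0.1) by colour, with 1 column per library (replicates 1 to 3 of each group) and rows ordered by site of expression. *Obp99c* is bright in every column, the taste-organ genes are darker in *Act88F-GS-Gal4* than in w1118 thoraces, and *Obp22a*, *Obp51a*, *Obp56f* and *Obp56i* change from library to library within the w1118 RU486 and head control groups.

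In heads of *elav-GS-Gal4* flies, members of antennae and taste organs were higher after RU486. By edgeR's quasi-likelihood test with Benjamini-Hochberg adjustment over all genes, 12 of the 30 members tested (40.0%) were higher at an adjusted p under 0.05 and none was lower, where 5.0% of all 10653 genes tested were higher and 0.779% lower. The median log2 fold change was 1.05 over the members and 0.00 over all genes. Among other tools, limma voom called 9 members higher and 0 lower, where it called 3.8% of all genes higher and 0.666% lower. DESeq2 called 13 and 2, where it called 9.69% and 8.17% of all genes. The 12 comprised all 3 antennal members, *Obp56d*, both tested taste-organ members, *Obp56e* of the seminal fluid list and 5 of the 19 tested members with no assigned site. In all 12 every RU486 library lay above every control library, as it did for 531 of all 533 genes called higher (99.6%).

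Among the antennal members, *lush*, which encodes a pheromone-binding protein of trichoid sensilla, was at 4.86, 5.47 and 6.82 CPM in head controls 1 to 3 and at 12.5, 26.9 and 17.7 CPM in RU486 heads 1 to 3. The groups did not overlap, and the log2 fold change was 1.79 ± 0.31 (SE), adjusted p = 0.0352. *Obp19a* was at 0.92, 1.12 and 1.84 CPM in controls and 8.31, 19.5 and 11.3 CPM after RU486, a 10.5-fold difference (log2 fold change 3.39 ± 0.43 (SE), adjusted p = 0.0167). *Obp59a*, which in flies is needed for humidity sensing, was at 0.368, 0.622 and 1.24 CPM and 3.28, 7.98 and 5.42 CPM, with a log2 fold change of 2.97 ± 0.54 (SE) and an adjusted p of 0.0393. In all 3 genes RU486 replicate 2 was the highest library and control replicate 3 the highest control. *Orco* had the same order, with 2.18, 3.27 and 5.67 CPM in controls and 15.5, 29.7 and 21.2 CPM after RU486 (log2 fold change 2.64 ± 0.42 (SE), adjusted p = 0.0302). Of the 18 antennal genes of the marker list, 17 were tested, 9 were higher and none lower. The part of this marker difference in the rise of the members was not tested.

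*Obp56d*, expressed in antennae and in taste organs, was the member with the highest CPM in RU486 heads. It was at 285, 363 and 353 CPM in controls and 895, 1130 and 928 CPM after RU486, a 3.06-fold difference with a log2 fold change of 1.61 ± 0.11 (SE) and an adjusted p of 0.00468. The taste-organ gene *Obp49a*, whose protein acts in the suppression of sweet taste by bitter compounds, was at 44.9, 74.6 and 71.9 CPM and 199, 202 and 208 CPM (log2 fold change 1.73 ± 0.14 (SE), adjusted p = 0.00468). Its RU486 replicates lay close together, and the lowest of them was more than 2 times the highest control. *Obp19b* was at 2.83, 8.20 and 3.82 CPM in controls and 82.2, 131.2 and 64.6 CPM after RU486, which was the largest fitted change of any member in heads (log2 fold change 4.33 ± 0.50 (SE), adjusted p = 0.0146). *Obp57e*, which in flies affects the taste of octanoic and hexanoic acid, was nearly absent from heads, at 0.0123, 0 and 0.0566 CPM and 0.0435, 0.283 and 0 CPM, and was not tested there. Of 15 taste-organ marker genes, 14 were tested, 7 were higher and none lower. The contact pheromone channel gene *ppk23* was at 0.405, 0.908 and 0.580 CPM in control heads and 7.44, 13.8 and 6.84 CPM in RU486 heads.

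**Figure D2:**
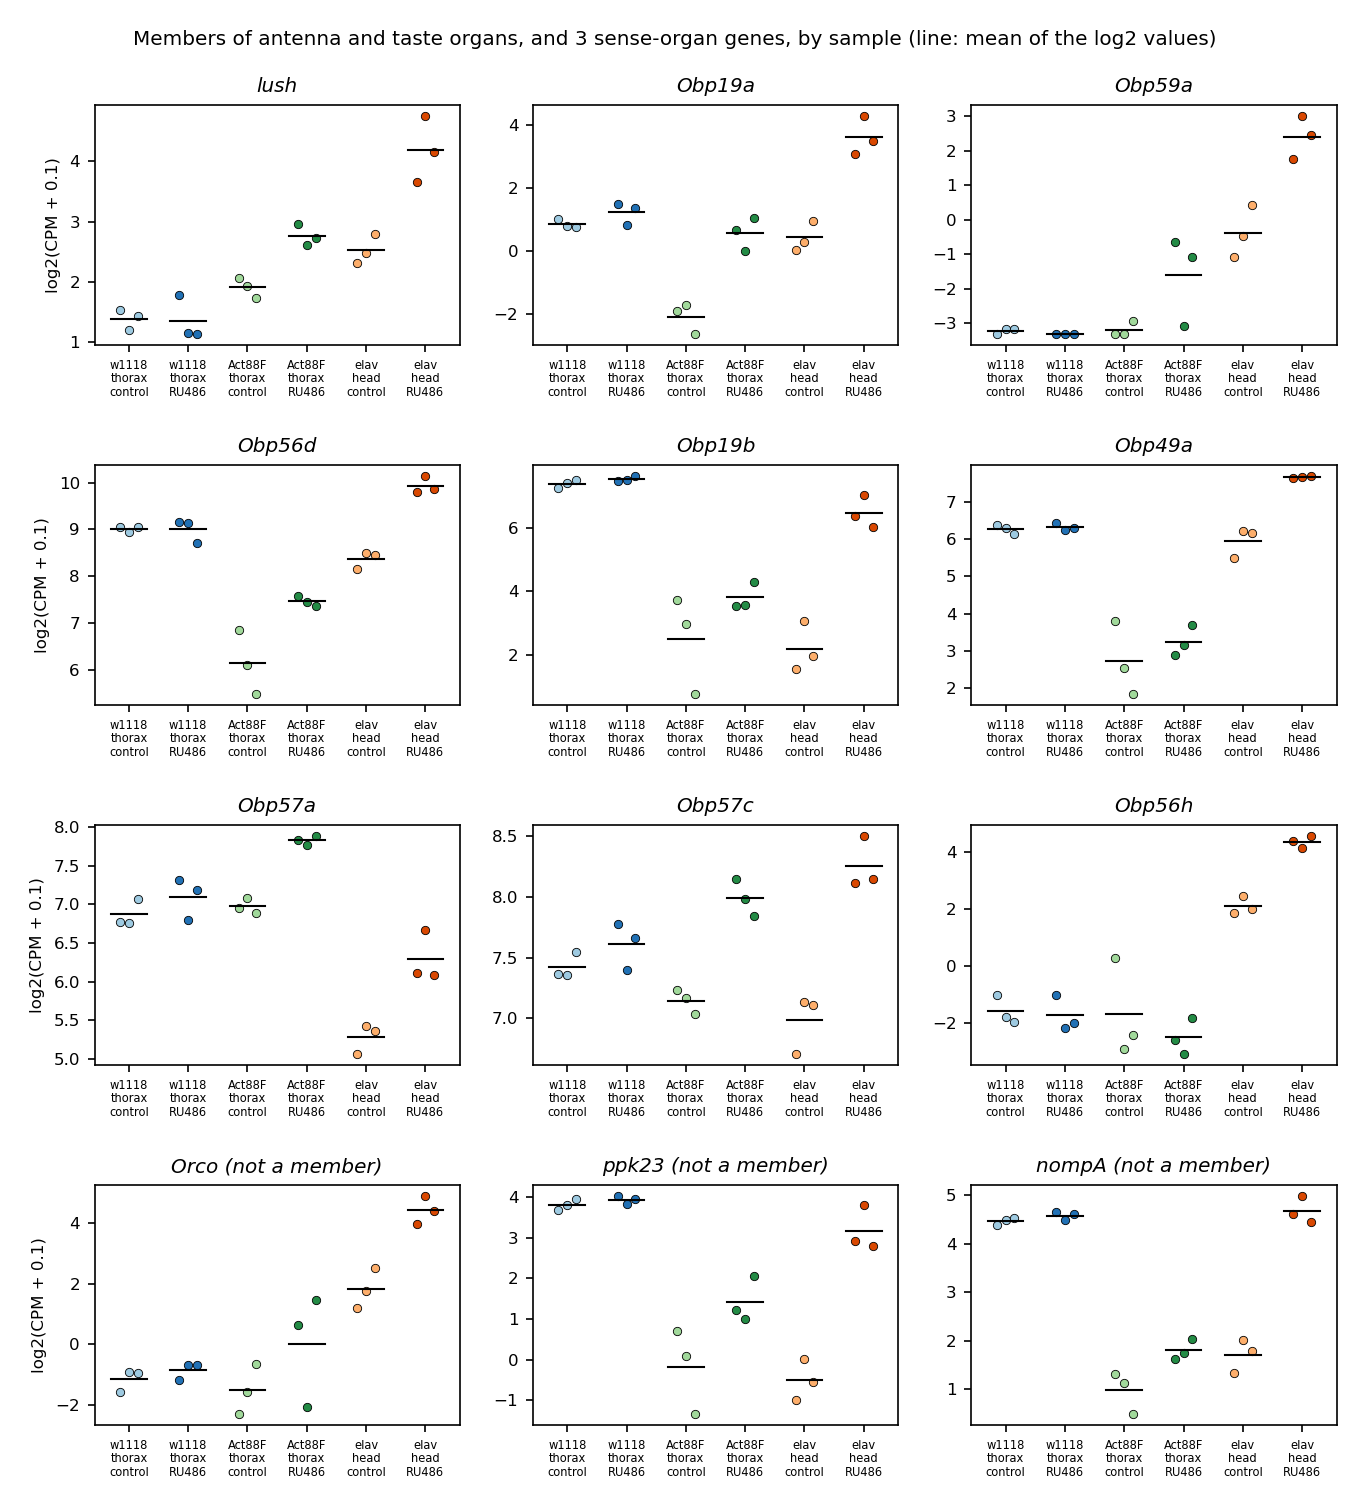
Level in each library, as log2(CPM + 0.1), of 9 members and of 3 genes that are not members (*Orco*, *ppk23*, *nompA*), with 1 point per library and a line at the mean of the log2 values. In heads, the 3 RU486 points lie above the 3 control points in all 12 panels, and in thoraces *Obp56d*, *Obp19b* and *Obp49a* are lower in both *Act88F-GS-Gal4* groups than in both w1118 groups, as are *ppk23* and *nompA*.

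Among the members with no assigned site, the neighbouring genes *Obp57a*, *Obp57b* and *Obp57c* were all higher in RU486 heads. *Obp57c* was at 104, 140 and 138 CPM in controls and 277, 363 and 284 CPM after RU486 (log2 fold change 1.33 ± 0.13 (SE), adjusted p = 0.00699). *Obp57a* was at 33.2, 43.0 and 41.0 CPM without and 69.2, 101 and 68.0 CPM with RU486 (log2 fold change 1.08 ± 0.17 (SE), adjusted p = 0.0271), and *Obp57b*, a gene of low level, was at 1.29, 1.58 and 1.51 CPM without and 2.54, 3.45 and 2.88 CPM with RU486 (log2 fold change 1.07 ± 0.17 (SE), adjusted p = 0.0255). The 3 genes differed in level, and their fitted differences were 2.10-fold to 2.51-fold. *Obp56h* was at 3.57, 5.37 and 3.90 CPM in controls and 21.0, 17.9 and 23.8 CPM after RU486, a 5.08-fold difference (adjusted p = 0.00468). *Obp50a* was at 0.0859, 0.0259 and 0.0424 CPM in controls, which is a few reads per library, and at 0.609, 1.61 and 0.753 CPM after RU486 (log2 fold change 4.14 ± 0.64 (SE), adjusted p = 0.0235). *Obp56e* was at 14.1, 20.0 and 20.2 CPM without and 34.3, 31.8 and 40.8 CPM with RU486 (log2 fold change 1.04 ± 0.12 (SE), adjusted p = 0.0120).

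The other 18 members tested in heads did not pass the threshold. *Obp44a*, a lipid-binding protein secreted by glia, was at 593, 868 and 813 CPM in control heads and 808, 682 and 589 CPM in RU486 heads, and the groups overlapped (log2 fold change -0.07 ± 0.14 (SE), adjusted p = 0.782). *Obp99c* was at 523, 726 and 700 CPM without and 616, 567 and 722 CPM with RU486, and *Obp99b* at 423, 629 and 582 CPM without and 675, 475 and 774 CPM with RU486. These 3 genes, among the 4 with the highest level per kilobase in control heads, overlapped between treatments. *Obp18a* (42.0, 54.3 and 55.9 CPM in controls, 56.8, 51.9 and 50.5 CPM after RU486), *Obp19c* (4.34, 6.20 and 7.35 CPM without and 6.15, 6.46 and 5.05 CPM with RU486) and *Obp8a* (14.5, 18.1 and 17.7 CPM without and 18.9, 17.9 and 18.7 CPM with RU486) overlapped as well. *Obp83cd* (3.71, 4.93 and 5.34 CPM without and 4.94, 3.64 and 3.45 CPM with RU486), *Obp83ef* (10.6, 15.2 and 15.1 CPM without and 10.9, 8.17 and 10.9 CPM with RU486) and *Obp83g* (0.835, 0.986 and 1.34 CPM without and 1.0, 1.16 and 0.885 CPM with RU486), which lie side by side, all overlapped too (adjusted p = 0.621, 0.171 and 0.999). For some members the groups did not overlap although the adjusted p missed the threshold: *Obp56b* had 1.94, 2.15 and 1.89 CPM in controls and the lower values 1.11, 1.25 and 0.885 CPM after RU486 (adjusted p = 0.0784), *Obp47a* had 0.0736, 0.441 and 0.240 CPM without and 1.13, 1.07 and 1.17 CPM with RU486 (adjusted p = 0.0758), and *Obp56a* had 36.4, 12.7 and 10.2 CPM without and 39.4, 62.9 and 37.9 CPM with RU486 (adjusted p = 0.314). The same held for *Obp58b* (0.196 to 0.269 CPM without and 0.358 to 0.477 CPM with RU486), *Obp99d* (0.0519 to 0.325 CPM without and 0.391 to 1.09 CPM with RU486) and *Obp56g*, given below. How often it held for genes not called over the whole table was not counted.

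The count of 12 in heads changed with the libraries kept. Without RU486 replicate 1 or without RU486 replicate 3 no member passed the threshold, and over all genes 1 and 0 genes were then higher. The filter on low counts was applied anew in each fit, and 12670 and 12685 genes were then tested instead of 10653. The lost calls therefore cannot be put down to the missing library alone. Without RU486 replicate 2 or control replicate 2 the count was 5, and over all genes 149 and 91 were higher. Without head controls 1 and 2, which hold male reproductive transcripts, only 1 control library was left. Of the 12 members, *Obp49a*, *Obp56d* and *Obp56h* then kept their calls, and fewer genes passed over the whole table. The count was 0 with the unequal-variance test, 6 with the replicate number as a block and 7 without the filter on low counts. At an unadjusted p under 0.05, 19 of the 30 members passed, 16 of them higher. Over all genes 25% passed and 14.5% passed and were higher.

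In *Act88F-GS-Gal4* thoraces, 2 antennal members, *Obp56d* and 5 members with no assigned site were higher after RU486. Of the 21 members tested, 8 (38.1%) were higher and none lower, where 12.6% of the 10600 genes tested were higher and 19.9% lower. The median log2 fold change was 0.77 over the members and 0.01 over all genes. In all 8 every RU486 library lay above every control library, as it did for all 1332 genes called higher. At an unadjusted p under 0.05, 10 members passed and all 10 were higher, where 44% of all genes passed and 19.2% passed and were higher. DESeq2 and limma voom each called 9 members higher and 0 lower, where DESeq2 called 16.7% of all genes higher and 21% lower and limma voom 11.8% and 19.8%. Of the antennal marker genes, 7 were tested and 3 were higher. The glial sum was 1719 to 1787 CPM in controls and 2386 to 2461 CPM after RU486, with 2 of 6 genes higher. The fat body sum was 5201 to 6920 CPM and 6463 to 10566 CPM, with 3 of 6 tested genes higher. Of 2 ejaculatory bulb genes 1 was tested, *PebIII*, at 828, 619 and 589 CPM in controls and 1152, 1308 and 1569 CPM after RU486, and it was higher. *PebIII* is also on the list of chemosensory support genes, and heads had 1748 to 4517 CPM of it. The other, *PebII*, was at most 3.48 CPM in controls and 0.0876 CPM after RU486. No tested neuronal, eye or taste-organ gene passed. The flight muscle genes of the marker list moved in these libraries too, with 4 of 8 lower after RU486 and a sum of 25845 to 26889 CPM in controls and 10238 to 23406 CPM after RU486. The part of these differences in those of the members was not tested.

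*Obp19a* gave the largest fitted change, from 0.164, 0.199 and 0.0589 CPM in *Act88F-GS-Gal4* controls to 1.47, 0.893 and 1.95 CPM after RU486 (log2 fold change 3.24 ± 0.49 (SE), adjusted p = 0.00421). *lush* was at 4.12, 3.74 and 3.24 CPM without and 7.72, 6.04 and 6.50 CPM with RU486 (log2 fold change 0.79 ± 0.14 (SE), adjusted p = 0.00756), and *Obp56d* at 116, 69.2 and 44.8 CPM without and 192, 175 and 166 CPM with RU486 (log2 fold change 1.13 ± 0.32 (SE), adjusted p = 0.0385). RU486 replicate 2 lay above every control for all 3 genes, as it did for *a10*, *Gr63a* and the antennal sum but not for *Orco*, *Jhedup*, *a5*, *Gr21a* or *Ir76a*. *Obp59a* was high in replicates 1 and 3, as *Orco* was, at 0, 0 and 0.0294 CPM in controls and 0.535, 0.0175 and 0.372 CPM after RU486, and was not tested because too few reads were counted. The fit without RU486 replicates 1 and 3 kept only 1 RU486 library. In it *Obp19a*, *lush*, *Obp56d*, *Obp83cd* and *Obp99c* no longer passed the threshold. Fewer genes passed over the whole table too, so the loss cannot be read as a trait of these members. *Obp56d* also lost its call without any 1 of RU486 replicates 1, 2 and 3 or control replicates 2 and 3 (adjusted p up to 0.12).

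The smallest adjusted p among members in *Act88F-GS-Gal4* thoraces belonged to *Obp57a* and *Obp57c*. *Obp57a* was at 124, 136 and 118 CPM in controls and 228, 219 and 237 CPM after RU486 (log2 fold change 0.78 ± 0.08 (SE), adjusted p = 0.00120), and *Obp57c* at 150, 143 and 130.96 CPM without and 284, 253 and 230 CPM with RU486 (log2 fold change 0.77 ± 0.10 (SE), adjusted p = 0.00194). Their neighbour *Obp57b* was at 2.46, 2.58 and 2.41 CPM without and 3.49, 3.19 and 3.25 CPM with RU486, without overlap but with an adjusted p of 0.0893. *Obp57a*, *Obp57c* and *Obp18a* passed under all 16 alternative settings, 1 of which kept only RU486 replicate 2. *Obp18a* was at 17.0, 14.3 and 16.7 CPM without and 27.8, 26.5 and 23.4 CPM with RU486 (log2 fold change 0.62 ± 0.09 (SE), adjusted p = 0.00412). *Obp99c*, the most abundant member in this tissue, was at 627, 598 and 625 CPM in controls and 1037, 940 and 805 CPM after RU486 (log2 fold change 0.51 ± 0.11 (SE), adjusted p = 0.0137), and *Obp83cd* at 1.31, 1.13 and 0.825 CPM without and 2.96, 2.87 and 3.04 CPM with RU486 (log2 fold change 1.36 ± 0.21 (SE), adjusted p = 0.00428). The call of *Obp99c* was lost without RU486 replicate 2 or control replicate 2 or 3 (adjusted p = 0.0518 to 0.0646). It was also lost without RU486 replicates 1 and 3, with the replicate number as a block and with the unequal-variance test (highest adjusted p 0.117). The neighbours of *Obp83cd* did not pass: *Obp83ef* was at 7.88, 10.1 and 9.60 CPM without and 13.0, 12.2 and 8.92 CPM with RU486 and *Obp83g* at 1.21, 0.728 and 0.471 CPM without and 1.45, 1.49 and 0.836 CPM with RU486, both with overlap.

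No taste-organ member passed the threshold in *Act88F-GS-Gal4* thoraces. *Obp19b* was at 13.1, 7.75 and 1.59 CPM in controls and 11.6, 11.8 and 19.4 CPM after RU486 (adjusted p = 0.360), and *Obp49a* at 13.8, 5.69 and 3.47 CPM without and 7.29, 8.83 and 12.9 CPM with RU486 (adjusted p = 0.737). Control replicate 1 was the highest of the 3 controls in both genes. It also had the most eye transcripts of the thorax libraries, with the rhodopsin gene *ninaE* at 942, 25.4 and 35.4 CPM in controls 1 to 3. Control heads had 29132 to 42630 CPM of *ninaE*, with 2.83 to 8.20 CPM of *Obp19b* and 44.9 to 74.6 CPM of *Obp49a*. The part of head RNA in this library was not tested. *Obp57e* was at 0.143, 0.0331 and 0.0589 CPM without and 0.10, 0.175 and 0.217 CPM with RU486, too low to be tested. *Obp99b*, at 64.5, 26.6 and 18.4 CPM without and 75.7, 106 and 140 CPM with RU486, did not overlap between treatments but missed the threshold (log2 fold change 1.47 ± 0.49 (SE), adjusted p = 0.0620). *Obp44a* was at 70.1, 39.3 and 33.1 CPM without and 35.6, 34.1 and 30.2 CPM with RU486, *Obp56a* at 53.4, 30.6 and 17.4 CPM without and 90.0, 80.7 and 22.9 CPM with RU486, *Obp8a* at 7.02, 4.50 and 3.95 CPM without and 6.94, 7.46 and 7.22 CPM with RU486 and *Obp19c* at 0.532, 0.232 and 0.471 CPM without and 0.652, 0.771 and 0.372 CPM with RU486, all with overlap. *Obp56h* (1.13, 0.0331 and 0.0883 CPM without and 0.0669, 0.0175 and 0.186 CPM with RU486), *Obp50a* (0.266, 0.232 and 0 CPM without and 0.15, 0.175 and 0.248 CPM with RU486), *Obp56b* (at most 0.031 CPM) and *Obp47a* (0 in all 6 libraries) were not tested.

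In w1118 thoraces, which carry no GeneSwitch, no member passed the threshold after RU486. Of the 33 members tested, none was higher and none lower, as for all 12980 genes tested, of which 0% passed in each direction. The smallest adjusted p was 0.539, and 1 member, *Obp51a*, had an unadjusted p under 0.05 (0.0305), as 9.2% of all genes did. DESeq2 and limma voom also called 0 members, although DESeq2 called 195 genes higher and 95 lower over the whole table. The median log2 fold change was 0.08 over the members and -0.02 over all genes.

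The antennal and taste-organ members were close between treatments in w1118 thoraces. *Obp19a* was at 1.90, 1.62 and 1.60 CPM in controls and 2.72, 1.68 and 2.46 CPM after RU486 (log2 fold change 0.42 ± 0.25 (SE), adjusted p = 0.595). *lush* was at 2.79, 2.20 and 2.61 CPM without and 3.36, 2.14 and 2.10 CPM with RU486, and *Obp56d* at 528, 496 and 534 CPM without and 575, 560 and 419 CPM with RU486, both with overlap. *Obp19b* was at 153, 169 and 180 CPM without and 176, 181 and 198 CPM with RU486, *Obp49a* at 83.7, 79.3 and 70.6 CPM without and 86.5, 75.3 and 79.2 CPM with RU486 and *Obp57e* at 1.34, 1.57 and 1.97 CPM without and 1.81, 1.69 and 2.39 CPM with RU486, all with overlap. *Obp59a* was at 0, 0.0114 and 0.0114 CPM in controls and at 0 in all 3 RU486 libraries, which with 3 counts per library as the floor allows up to 0.0384 CPM.

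Members with no assigned site did not pass either. *Obp99c* was at 663, 665 and 606 CPM in controls and 763, 677 and 670 CPM after RU486, above every control but by 1.09-fold only (adjusted p = 0.592). *Obp99b* was at 276, 343 and 526 CPM without and 512, 447 and 743 CPM with RU486, *Obp57c* at 165, 164 and 187 CPM without and 219, 168 and 203 CPM with RU486, *Obp57a* at 109, 108 and 135 CPM without and 159, 111 and 146 CPM with RU486 and *Obp57b* at 1.86, 1.48 and 1.90 CPM without and 1.98, 1.34 and 2.21 CPM with RU486. *Obp56a* was at 55.0, 45.3 and 56.6 CPM without and 62.3, 54.5 and 69.2 CPM with RU486, *Obp18a* at 25.7, 25.2 and 21.4 CPM without and 30.8, 22.3 and 23.5 CPM with RU486 and *Obp44a* at 71.7, 116 and 145 CPM without and 80.3, 124 and 154 CPM with RU486. All of these overlapped between treatments. For *Obp44a* libraries of the same number lay near each other in both treatments, and in w1118 thoraces the replicate numbers were taken to pair the libraries. The correlation of deviations from the group means over genes was 0.308 to 0.572 for the same number, though a pair of different numbers reached 0.451. With the number as a block 0 members were called, as without it. *Obp83cd* (0.739 to 1.24 CPM over the 6 libraries), *Obp83ef* (6.96 to 9.94 CPM), *Obp83g* (0.387 to 0.503 CPM), *Obp19c* (0.590 to 1.06 CPM), *Obp50a* (1.17 to 1.65 CPM), *Obp47a* (0.306 to 0.842 CPM) and *Obp56h* (0.120 to 0.398 CPM) were low.

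**Figure D3:**
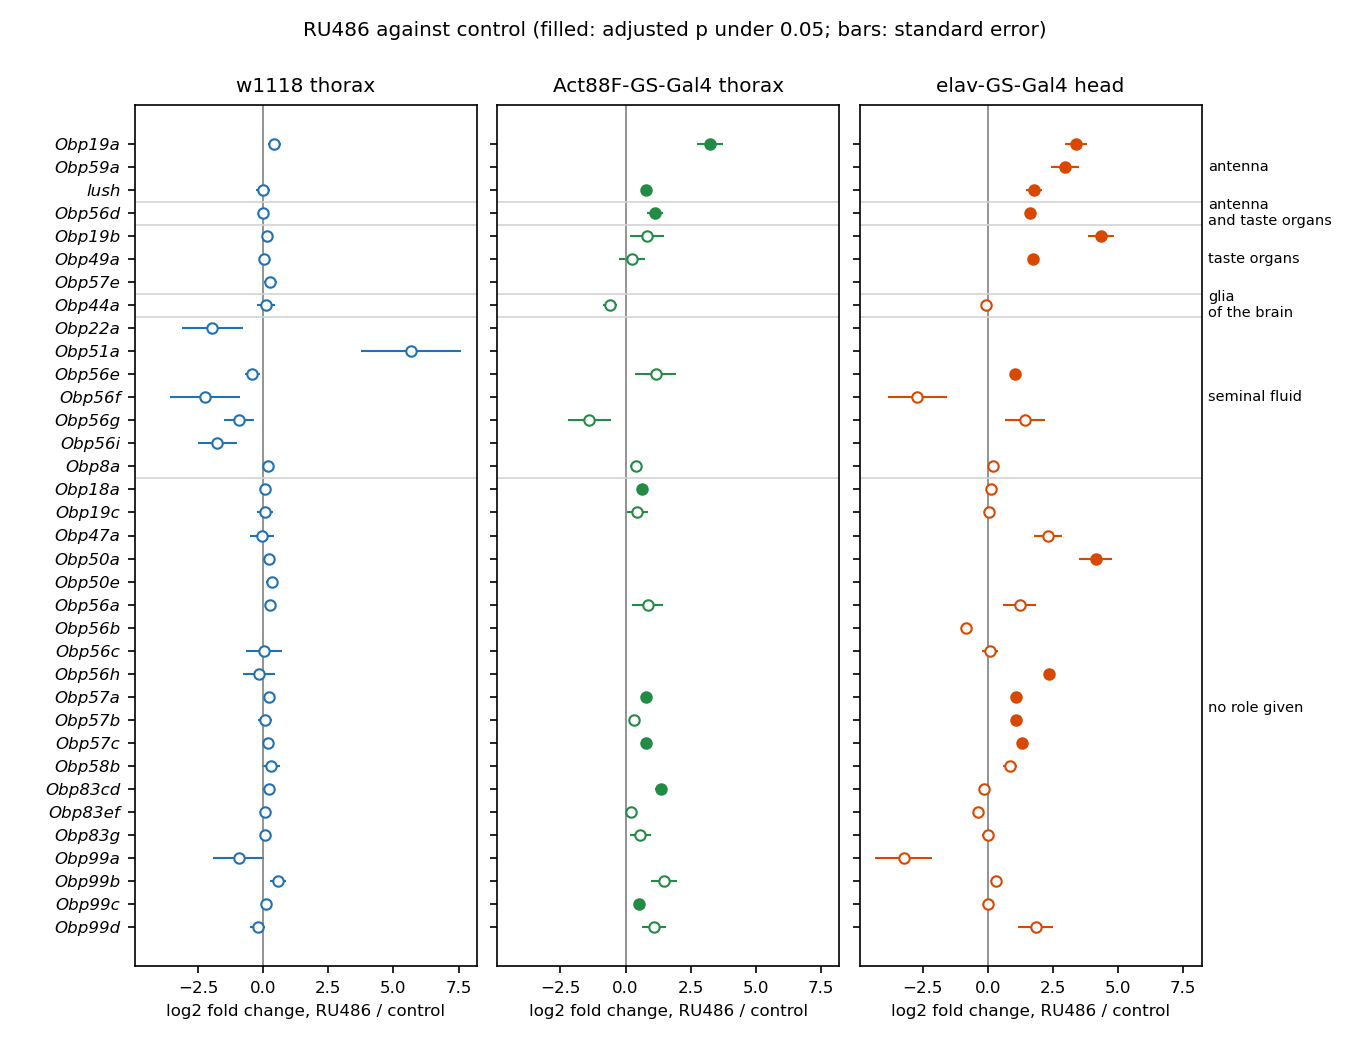
Log2 fold change of RU486 against control for each member tested, with its standard error, in w1118 thoraces, *Act88F-GS-Gal4* thoraces and *elav-GS-Gal4* heads, by site of expression. Filled points have an adjusted p under 0.05: 0 of 33 in w1118 thoraces, 8 of 21 in *Act88F-GS-Gal4* thoraces and 12 of 30 in heads, all to the right of 0.

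The difference between the responses of the 2 thorax stocks was tested as an interaction over the 12 thorax libraries. Of the 32 members tested, 1 passed the threshold, *Obp19a*, and it was higher in *Act88F-GS-Gal4* relative to w1118 (log2 difference 2.82 ± 0.60 (SE), adjusted p = 0.0109), where 4.29% of the 13019 genes tested were higher and 11.9% lower. The other 7 members called in *Act88F-GS-Gal4* thoraces were not shown to differ from w1118: *Obp57c* had a log2 difference of 0.56 ± 0.17 (SE) (adjusted p = 0.0517), *Obp83cd* of 1.15 ± 0.37 (SE) (adjusted p = 0.0613) and *Obp56d* of 1.12 ± 0.39 (SE) (adjusted p = 0.0816). At an unadjusted p under 0.05, 11 members passed, 10 of them higher, where 29.7% of all genes passed and 11.9% passed and were higher. With the replicate number as a block no member passed, while 457 genes were higher over the whole table. *Obp19a* also lost its call without *Act88F-GS-Gal4* RU486 replicates 1 and 3, which left 1 RU486 library of this stock. Without *Act88F-GS-Gal4* control replicate 1 the count was 4, without *Act88F-GS-Gal4* RU486 replicate 3 it was 3, without w1118 control replicate 1 it was 2 and without w1118 RU486 replicate 1 it was 5. Over all genes 592, 556, 380 and 649 were then higher.

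With RU486, 15 members rose in *Act88F-GS-Gal4* thoraces, in *elav-GS-Gal4* heads or in both, and 5 of them in both: *lush*, *Obp19a*, *Obp56d*, *Obp57a* and *Obp57c*. They were 62.5% of the 8 in thoraces and 41.7% of the 12 in heads. Over all genes, 144 rose in both, 10.8% of the 1332 in thoraces and 27% of the 533 in heads. The difference between these responses was not tested, since stock and body part changed together.

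In control thoraces the 2 stocks differed in many members. Of 35 tested, 19 (54.3%) were lower in *Act88F-GS-Gal4* than in w1118 and none was higher, where 32.8% of the 13121 genes tested were lower and 19.5% higher. The median log2 difference was -2.05 over the members and -0.12 over all genes; it was -1.31 with *Obp47a*, *Obp56c* and *Obp56i*, at 0 in all *Act88F-GS-Gal4* controls, set to the bound that 3 counts per library allow, and with *Obp56b*, under that floor in both groups, left out. At an unadjusted p under 0.05, 21 members passed, and 1 of them, *lush*, was higher in *Act88F-GS-Gal4*. Over all genes 58.6% passed and 22.3% passed and were higher. In all 19 members every *Act88F-GS-Gal4* control lay below every w1118 control, as for 4291 of all 4304 genes called lower (99.7%). DESeq2 called 3 members higher, edgeR without the filter on low counts 2 and limma voom 0, where they called 29.4%, 27.7% and 17.1% of all genes higher.

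All 3 tested taste-organ members were lower in *Act88F-GS-Gal4* control thoraces. *Obp19b*, at 153, 169 and 180 CPM in w1118 and 13.1, 7.75 and 1.59 CPM in *Act88F-GS-Gal4*, differed 22.3-fold (log2 difference -4.48 ± 0.79 (SE), adjusted p = 0.00547). *Obp49a* differed 10.1-fold (adjusted p = 0.00313) and *Obp57e* 19.4-fold (adjusted p = 0.00699), with the per-library values given above. *Obp56d* differed 6.76-fold (log2 difference -2.76 ± 0.33 (SE), adjusted p = 0.00113), and *Obp19a* 12-fold (log2 difference -3.59 ± 0.52 (SE), adjusted p = 0.00232). The antennal *lush* ran the other way, with the non-overlapping values given above and a log2 difference of 0.55 ± 0.22 (SE) (adjusted p = 0.0724). Of the 15 taste-organ marker genes, 14 were tested, 8 were lower and 1 higher in *Act88F-GS-Gal4*. *ppk23* was at 12.8, 13.7 and 15.3 CPM in w1118 and 1.52, 0.960 and 0.294 CPM in *Act88F-GS-Gal4* controls, and *nompA*, which encodes a protein of the dendritic cap of sensory bristles, at 20.7, 22.3 and 23.2 CPM in w1118 and 2.38, 2.09 and 1.30 CPM in *Act88F-GS-Gal4*. Flight muscle genes went the other way, with 7 of 8 higher in *Act88F-GS-Gal4* and a sum of 8550 to 9650 CPM in w1118 controls against 25845 to 26889 CPM. The part of these marker differences in the differences of the members was not tested.

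*Obp99b* was also lower in *Act88F-GS-Gal4* controls, by 10.4-fold (log2 difference -3.38 ± 0.52 (SE), adjusted p = 0.00314), while *Obp99c* was not called (log2 difference -0.06 ± 0.12 (SE), adjusted p = 0.700). *Obp44a* was 2.33-fold lower (adjusted p = 0.0268), *Obp18a* 1.5-fold lower (adjusted p = 0.0127) and *Obp50a* 7.72-fold lower (adjusted p = 0.0348). *Obp47a*, at 0.306, 0.352 and 0.842 CPM in w1118 and at 0 in all *Act88F-GS-Gal4* controls, was at least 6.02-fold lower, taking 3 counts per library as the floor. *Obp58b*, at 0.404, 0.273 and 0.216 CPM in w1118 and 0.0409, 0 and 0.0294 CPM in *Act88F-GS-Gal4*, and *Obp99d*, at 0.848, 1.03 and 0.922 CPM in w1118 and 0.184, 0.166 and 0.324 CPM in *Act88F-GS-Gal4*, were lower as well (adjusted p = 0.00700 and 0.0277). Leaving out 1 control library of either stock or of the heads, which share the fit, could end the call of *Obp44a*, *Obp50a*, *Obp56c*, *Obp56e*, *Obp56g*, *Obp56i* and *Obp99d* (highest adjusted p 0.0506 to 0.103), and the other 12 calls held without each library in turn. The *Obp57a* to *Obp57c* genes and the *Obp83cd* to *Obp83g* genes did not pass the threshold in either direction.

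**Figure D4:**
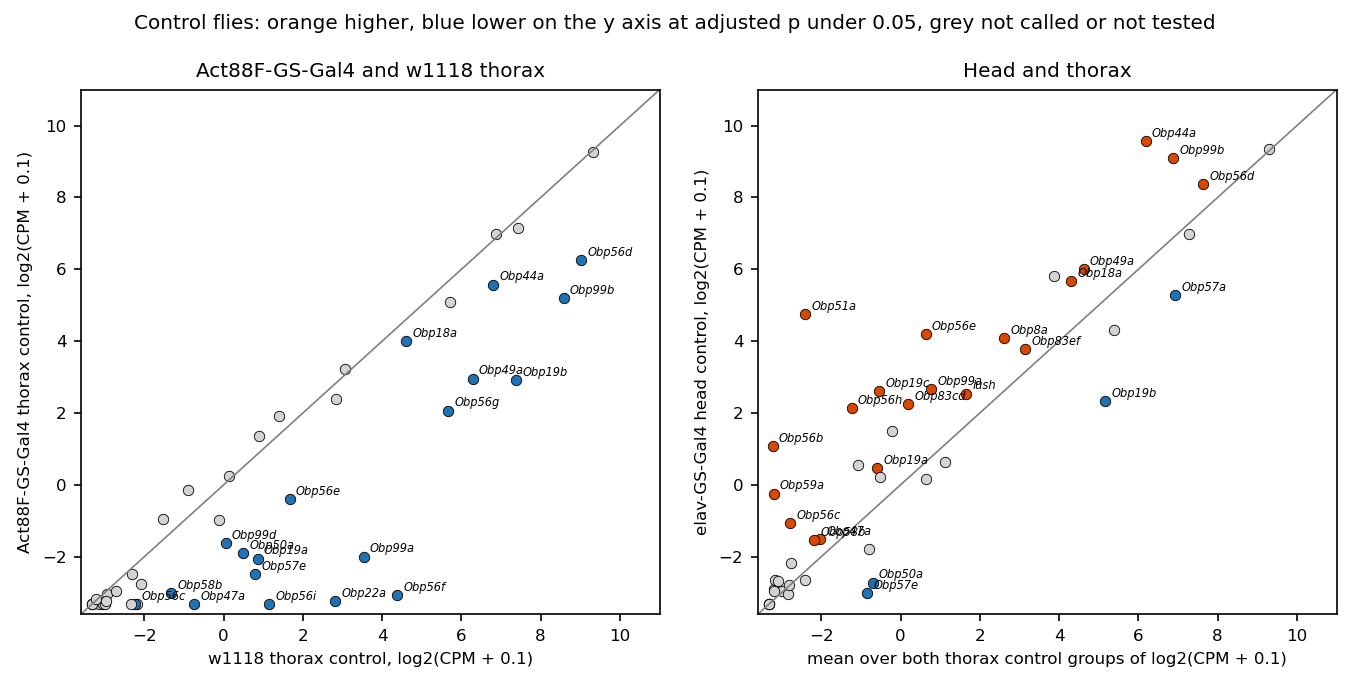
Mean level of each of the 46 members in control groups, as log2(CPM + 0.1), with *Act88F-GS-Gal4* against w1118 thoraces on the left and heads against the mean of both thorax groups on the right; the line marks equal levels. Orange points were higher and blue points lower on the vertical axis at an adjusted p under 0.05. No point is orange and 19 are blue on the left, and 20 are orange and 4 blue on the right.

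Control heads were compared with the mean of both control thorax groups on the log2 scale. Of 35 members tested, 20 (57.1%) were higher and 4 (11.4%) lower in heads, where 31.8% of the 13121 genes tested were higher and 21.0% lower. The median log2 difference was 1.39 over the members and 0.27 over all genes. For 13 of the 24 members the heads lay beyond all 6 thorax libraries, 12 of them above, where this held for 5155 of all 6928 genes called (74.4%). For the other 11 at least 1 control head overlapped the control thoraces.

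The members found almost only in heads among control flies were *Obp59a* and *Obp56b*. *Obp59a* was at 0.368, 0.622 and 1.24 CPM in control heads against at most 0.0294 CPM in control thoraces (adjusted p = 0.000378), and *Obp56b* at 1.94, 2.15 and 1.89 CPM against at most 0.0296 CPM (adjusted p = 0.000369); relative to *Act88F-GS-Gal4* controls, all at 0, *Obp56b* was at least 24-fold higher. *Obp44a* was 10.5-fold higher in heads (log2 difference 3.39 ± 0.30 (SE), adjusted p = 4.98e-05), with the glial gene *repo* at 55.1, 81.6 and 78.8 CPM in control heads against 29.4 to 37.1 CPM in control thoraces and the astrocyte gene *alrm* at 182, 261 and 268 CPM against 48.8 to 59.6 CPM. *Obp19c* (10.2-fold), *Obp56e* (12.6-fold), *Obp56h* (13.1-fold), *Obp83cd* (4.49-fold), *Obp8a* (2.78-fold), *Obp18a* (2.59-fold), *lush* (1.87-fold) and *Obp83ef* (1.57-fold) were also higher in heads than in every control thorax. *Obp56c* was at 0.307, 0.389 and 0.438 CPM in heads and 0.0296, 0.114 and 0.193 CPM in w1118 thoraces. *Obp57a* was the member that was lower in heads than in every control thorax (log2 difference -1.64 ± 0.12 (SE), adjusted p = 1.77e-05), while *Obp57c*, from the same run of 3 genes, was not called (-0.29 ± 0.11 (SE), adjusted p = 0.0605).

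For the taste-organ members the order of heads and thoraces depended on the stock. *Obp19b* and *Obp57e* were called lower in heads, and both were far higher in w1118 thoraces than in control heads, whereas for *Obp19b* the *Act88F-GS-Gal4* thoraces (1.59 to 13.1 CPM) overlapped the control heads (2.83 to 8.20 CPM). *Obp49a* and *Obp56d* were called higher in heads (log2 difference 1.38 ± 0.39 (SE) and 0.74 ± 0.26 (SE)), yet w1118 thoraces had 70.6 to 83.7 and 496 to 534 CPM against 44.9 to 74.6 and 285 to 363 CPM in control heads. *Obp19a*, *Obp50a*, *Obp47a* and *Obp58b* likewise had control heads within the range spanned by the control thoraces. The comparison of heads with thoraces also rests on head controls 1 and 2: without them the log2 difference of *Obp51a* changed from 8.28 to -1.46 and that of *Obp99a* from 2.24 to -0.63. Leaving out 1 control library could end the call of *Obp19a*, *Obp47a*, *Obp49a*, *Obp50a*, *Obp56d*, *Obp58b* and *Obp99a* (highest adjusted p 0.0572 to 0.225), and the other 17 calls held without each library in turn.

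The seminal fluid members fell into those that followed the male reproductive transcripts of each library and those that did not. *Obp22a* was at 7.78, 5.64 and 7.33 CPM in w1118 controls, 0.0664, 2.18 and 3.10 CPM in w1118 RU486 libraries 1 to 3, 6.71, 1.43 and 0.0283 CPM in head controls 1 to 3, at 0 in the RU486 heads and at most 0.0334 CPM in *Act88F-GS-Gal4* thoraces. *Obp56f* was at 24.5, 22.7 and 14.5 CPM in w1118 controls, 0.0796, 8.25 and 4.88 CPM in w1118 RU486 libraries, 1.96, 1.01 and 0.0848 CPM in head controls, 0.217, 0.179 and 0.0753 CPM in RU486 heads and at most 0.0589 CPM in *Act88F-GS-Gal4* thoraces. *Obp56i* was at 1.67, 2.15 and 2.55 CPM in w1118 controls, 0.119, 0.939 and 0.801 CPM in w1118 RU486 libraries and 3.23, 0.908 and 0 CPM in head controls, and at 0 in all RU486 heads and *Act88F-GS-Gal4* thoraces. The high libraries of these 3 genes were the ones in which the sum of accessory gland genes was high, and w1118 RU486 replicate 1 and head control 3 were low in both. The part of the male reproductive transcripts in these values was not tested.

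*Obp99a*, to which no site was assigned, varied in the same libraries, at 7.66, 13.9 and 12.9 CPM in w1118 controls, 0.611, 11.8 and 5.59 CPM in w1118 RU486 libraries, 13.6, 4.25 and 0.848 CPM in head controls, 0.587, 0.537 and 0.942 CPM in RU486 heads and 0.0883 to 0.451 CPM in *Act88F-GS-Gal4* thoraces. *Obp51a* was at 49.5, 30.8 and 0.0283 CPM in head controls 1 to 3 and 0.319, 0.370 and 15.2 CPM in w1118 RU486 libraries 1 to 3, at 0.0788, 0.125 and 0.102 CPM in w1118 controls and at most 0.232 CPM elsewhere. It was thus low in the w1118 controls, whose accessory gland sum was the highest of all groups. The RU486 comparison in heads gave no test for *Obp22a*, *Obp51a* and *Obp56i*, and adjusted p of 0.215 for *Obp56f* and 0.163 for *Obp99a*. In w1118 thoraces the log2 fold changes were -1.96 ± 1.17 (SE) for *Obp22a*, -2.22 ± 1.34 (SE) for *Obp56f*, -1.77 ± 0.75 (SE) for *Obp56i* and -0.94 ± 0.98 (SE) for *Obp99a*, with adjusted p of 0.539 to 0.677. For the first 3 every RU486 library lay below every control, and how often this held over all genes was not counted. The accessory gland sum was also lower in every w1118 RU486 library, at 4.01, 298 and 409 CPM against 800 to 1011 CPM in controls. Between the control thoraces, *Obp22a*, *Obp56f* and *Obp99a* were lower in *Act88F-GS-Gal4* (adjusted p = 0.0112, 0.00361 and 0.00432), *Obp56i* was at least 25.5-fold lower (adjusted p = 0.0352), and all 13 accessory gland genes were lower.

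The other seminal fluid members were present in libraries without accessory gland transcripts. *Obp56g* was at 147, 130.7 and 170 CPM in RU486 heads and 91.3, 64.5 and 11.4 CPM in head controls 1 to 3, at 29.5, 96.6 and 26.4 CPM without and 22.6, 32.5 and 25.2 CPM with RU486 in w1118 thoraces and at 8.05, 3.68 and 0.560 CPM without and 1.19, 1.56 and 2.29 CPM with RU486 in *Act88F-GS-Gal4* thoraces. Its RU486 heads lay above all head controls, but head control 3 was far below the other 2 and the difference missed the threshold (log2 fold change 1.42 ± 0.77 (SE), adjusted p = 0.329). *Obp8a* had 6.78, 6.62 and 7.77 CPM in w1118 controls and 8.83, 7.07 and 8.37 CPM in w1118 RU486 libraries, and *Obp56e* 3.23, 3.17 and 2.80 CPM without and 2.08, 3.15 and 1.63 CPM with RU486, with 1.41, 0.397 and 0.177 CPM without and 1.35, 2.77 and 0.681 CPM with RU486 in *Act88F-GS-Gal4* thoraces. Both were higher in all 6 head libraries than in any thorax, RU486 heads included, where the accessory gland sum was 0.403 to 0.587 CPM.

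**Figure D5:**
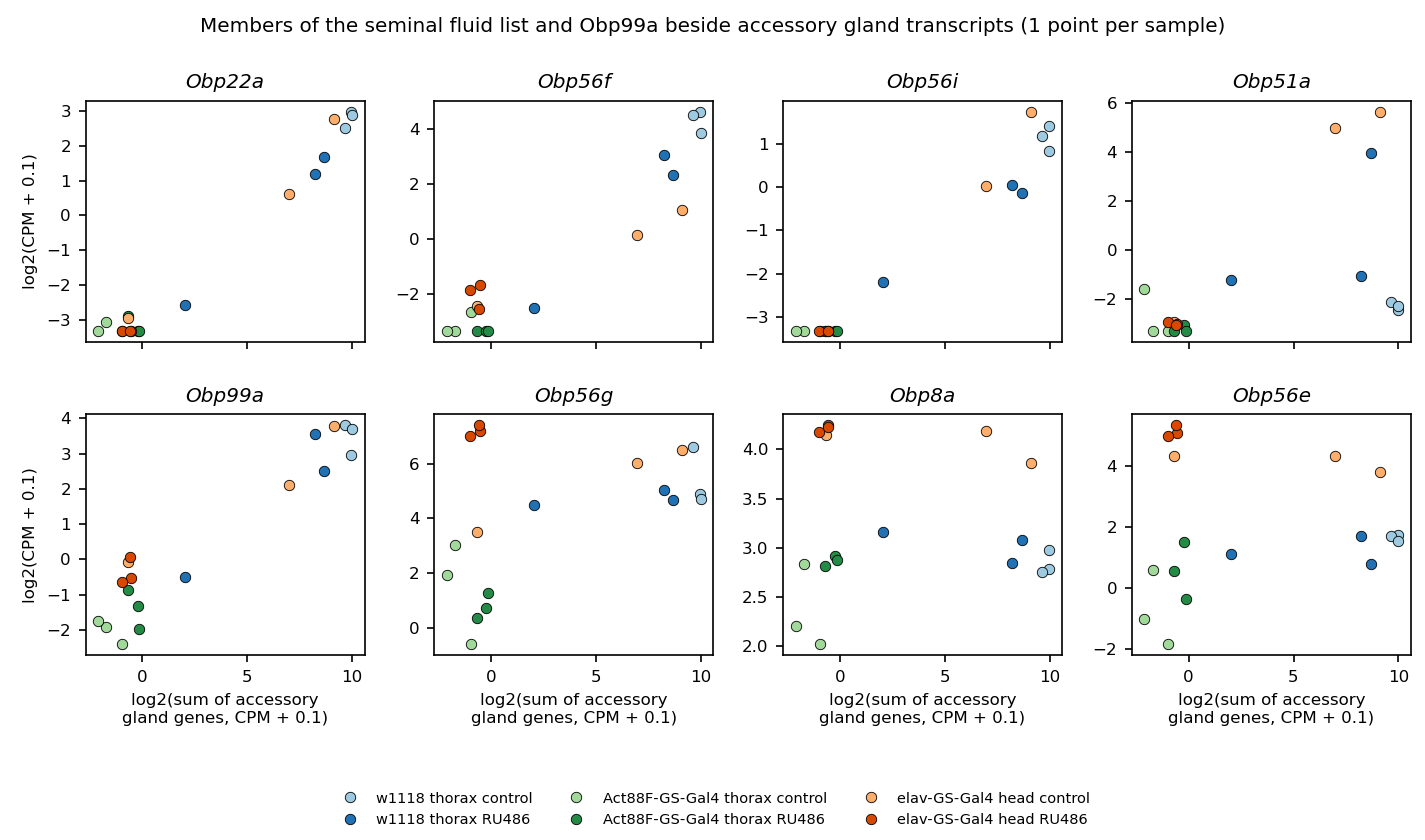
Level of 7 seminal fluid members and of *Obp99a* in each library, as log2(CPM + 0.1), against the summed level of 13 accessory gland genes on the same scale, with 1 point per library coloured by group. *Obp22a*, *Obp56f*, *Obp56i* and *Obp99a* are high only at the right of their panels, *Obp51a* is high in 3 libraries there and low in the w1118 controls, and *Obp56g*, *Obp8a* and *Obp56e* are high in RU486 heads at the left.

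Of the 52 genes of the family, members and older symbols together, 31 lay in 9 runs of neighbours no more than 10000 bp apart in BDGP6.54, an annotation newer than the BDGP5 release used for counting. On chromosome arm 2R, *Obp56a* to *Obp56f* spanned positions 19697723 to 19713976. In RU486 heads *Obp56d* and *Obp56e* of this run rose, while the values of *Obp56b* after RU486 lay below the controls without passing the threshold. *Obp57c*, *Obp57b* and *Obp57a* lay within 2.17 kb at 20503584 to 20505758 on 2R, and all 3 were called in heads and 2 in *Act88F-GS-Gal4* thoraces. *Obp19a*, *Obp19b*, *Obp19c* and *Pbprp2* (*Obp19d*) lay within 5.24 kb at 20415744 to 20420979 on X. In heads *Obp19a* and *Obp19b* rose 10.5-fold and 20.1-fold, while *Obp19c*, next to them, had a log2 fold change of 0.04 ± 0.18 (SE). On 3R, *Obp83cd*, *Obp83ef* and *Obp83g* lay within 4.17 kb, and only *Obp83cd* of the 3 was called after RU486, in *Act88F-GS-Gal4* thoraces. Members that are neighbours thus included both genes that moved together and genes that did not.

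The 6 family genes under older symbols were all higher in RU486 heads. *Pbprp3* (*Obp83a*) was at 4.93, 7.03 and 10.6 CPM in head controls and 46.2, 101 and 63.9 CPM after RU486 (log2 fold change 3.29 ± 0.41 (SE), adjusted p = 0.0183), and *Os-E* (*Obp83b*), its neighbour, at 4.21, 4.64 and 9.18 CPM without and 35.9, 83.4 and 51.8 CPM with RU486. *Pbprp2*, expressed in antennae and taste organs, was at 450, 675 and 689 CPM without and 1000, 1114 and 1047 CPM with RU486 (log2 fold change 0.86 ± 0.12 (SE), adjusted p = 0.0176). *Pbprp1*, *Pbprp4* and *Pbprp5*, all antennal, had log2 fold changes of 2.49, 3.14 and 2.73, with adjusted p of 0.0243, 0.0344 and 0.0370. In *Act88F-GS-Gal4* thoraces *Pbprp1* and *Pbprp3* were called higher; *Pbprp3* was at 0.123, 0.0331 and 0.0294 CPM in controls and 3.98, 0.245 and 5.95 CPM after RU486, high in the same replicates 1 and 3 as *Orco*. None of the 6 was called in w1118 thoraces.

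Other support genes of chemosensory organs, and the co-receptor gene *Orco*, were examined from a list of 16, of which 15 were found in the files. *Orco*, *Snmp1*, *a5*, *a10* and *Jhedup* are also on the antennal marker list, so the counts partly repeat those given above. In heads all 15 were tested, 9 were higher after RU486 and none lower, where 5.0% of all genes tested were higher. The median log2 fold change of the 15 was 1.24. *Os-C*, an antennal protein gene, was at 4.30, 5.11 and 9.88 CPM in controls and 42.4, 90.1 and 57.9 CPM after RU486 (log2 fold change 3.36 ± 0.45 (SE), adjusted p = 0.0213), and *nompA* at 2.42, 3.92 and 3.32 CPM without and 24.6, 31.7 and 21.7 CPM with RU486 (log2 fold change 3.08 ± 0.19 (SE), adjusted p = 0.00468). *Snmp1*, which encodes a membrane protein needed with *lush* for pheromone detection, was at 14.0, 19.6 and 14.9 CPM without and 32.6, 50.2 and 35.6 CPM with RU486 (adjusted p = 0.0205). In *Act88F-GS-Gal4* thoraces 14 of the 15 were tested, 8 were higher and none lower, where 12.6% of all genes tested were higher. *Snmp1* was at 9.79, 7.38 and 8.07 CPM without and 16.8, 14.9 and 14.9 CPM with RU486 (log2 fold change 0.80 ± 0.12 (SE), adjusted p = 0.00341). In w1118 thoraces 13 were tested and none passed.

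The remaining 15 members had a mean under 1 CPM in every group. *Obp99d* reached a group mean of 0.934 CPM, *Obp58b* of 0.423 CPM, *Obp56c* of 0.384 CPM and *Obp58d* of 0.206 CPM. *Obp50e*, *Obp50d*, *Obp93a*, *Obp73a*, *Obp85a*, *Obp47b*, *Obp46a* and *Obp58c* stayed between 0.0296 and 0.172 CPM in their highest group, which is a few reads per library. In BDGP6.54, *Obp50b* and *Obp50c* share all their exons on 1 strand, and *Obp57d* lies within exons of *Cpr57A* on its own strand, so that a read there cannot be assigned to 1 gene. Their counts of 0 do not show that they are silent. *Obp46a*, *Obp47b*, *Obp50b*, *Obp50c*, *Obp50d*, *Obp57d*, *Obp58c*, *Obp58d*, *Obp73a*, *Obp85a* and *Obp93a*, 11 members in all, passed the filter on low counts in none of the 6 comparisons.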

How the data were processed

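Messenger RNA of 18 samples was sequenced from stranded libraries on a HiSeq 2000. The authors mapped reads to *Drosophila* BDGP5, HTSeq being used to count reads on genes (the submitters' processing notes also name BWA, STAR and build dm3), and deposited raw read counts per gene symbol without normalization. Unaligned, ambiguous and unassigned reads listed beside the genes were left out, and aligned reads not on a gene were 13.1% to 26.2%. Unaligned reads were listed as 0 in heads and as 774393 to 2646573 in thoraces.

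The members, the gene lists and the sites of expression were chosen with earlier results of these data known. Members with a mean of at least 1 CPM in at least 1 group were described in every sample, and members with an adjusted p under 0.05 in any comparison were named. Differences were tested with edgeR 4.0.16 in R 4.3.3 (filterByExpr, TMM, robust quasi-likelihood test, Benjamini-Hochberg adjustment over all genes tested), with the 6 samples of each RU486 experiment, the 12 thorax samples for the interaction and the 9 control samples for the differences between control groups. CPM used TMM over all 18 samples, and CPM per kilobase the exon length in BDGP6.54. Alternatives were DESeq2 1.42.0, limma voom 3.58.1, an unequal-variance test on log2(CPM + 1), 3 other scalings, no filter, a replicate block, 1 fit over all samples and leaving out each sample. The fits were tested on simulated counts. No 2 libraries were identical, and p-values and floors of 3 counts cover only the spread between these samples and counting error. Same-numbered w1118 libraries deviated together over genes (r = 0.308 to 0.572, where a differently numbered pair reached 0.451) and those of the other stocks did not (-0.145 to 0.0712), so the numbers were taken to pair w1118 libraries only. Some symbols have been exchanged between genes over time: 7 member symbols are also synonyms of another gene of the family. Sequences were not used here.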

Additional observations from a re-analysis of the deposited data

Results flagged for a closer look

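The RU486 response of *Obp19a*, grouped as antennal by known expression, differed between the thorax stocks by a test of the difference itself. In w1118 thoraces it was at 1.60 to 2.72 CPM, against 0.920 to 1.84 CPM in control heads. The antennal *Obp59a* was at most 0.0114 CPM in w1118 thoraces. The organ that gave the *Obp19a* reads in thoraces was not tested. The log2 fold change in *Act88F-GS-Gal4* minus that in w1118 was 2.82 ± 0.60 (SE), with an adjusted p of 0.0109 by edgeR's quasi-likelihood test over 13019 genes. In *Act88F-GS-Gal4* all 3 RU486 libraries (0.893 to 1.95 CPM) lay above all 3 controls (0.0589 to 0.199 CPM), and in w1118 the groups of 1.68 to 2.72 CPM and 1.60 to 1.90 CPM overlapped. The call did not hold with the replicate number as a block (adjusted p = 0.061). It did not hold either without *Act88F-GS-Gal4* RU486 replicates 1 and 3, which left 1 RU486 library of this stock. The RU486 level of *Act88F-GS-Gal4* thus came near that of w1118, and the stocks differed 12-fold in controls.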

How the results depend on the processing

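In *Act88F-GS-Gal4* thoraces the 8 higher members became 5 with the unequal-variance test and 6 to 10 when 1 sample was left out. Over all genes 297 and 660 to 1391 were then higher instead of 1332. The 0 lower members became 0 to 1 when 1 sample was left out, with the 1 found without control replicate 3. In heads the 12 higher members became 7 without the filter on low counts, 0 with the unequal-variance test and 6 with the replicate block. Over all genes 223, 0 and 149 were then higher instead of 533. Leaving out 1 head sample gave 0 to 13, with 0 without RU486 replicate 1 or 3, 5 without RU486 replicate 2 or control 2, 8 without control 1 and 13 without control 3. Over all genes 0 to 870 were then higher, and the filter on low counts then kept 10640 to 12685 genes instead of 10653. The 0 lower members in heads became 2 with DESeq2, 4 in 1 fit of all 18 samples and 0 to 4 when 1 sample was left out, with 4 without control 3. Over all genes 870, 2676 and 0 to 2511 were then lower instead of 83. In w1118 thoraces every alternative gave 0 in both directions. For the interaction, the 1 higher member became 6 with scaling by total counts, 2 with upper quartile scaling, 2 with DESeq2's size factors, 8 with DESeq2, 0 with the replicate block, 6 in 1 fit of all 18 samples and 1 to 5 when 1 sample was left out. Over all genes 1353, 708, 696, 1268, 457, 774 and 307 to 649 were then higher instead of 559. The 4 members lower in control heads than in thoraces became 8 with DESeq2 and 7 in 1 fit of all 18 samples. Over all genes 3986 and 3222 were then lower instead of 2749. Without head controls 1 and 2, with 1 head control left, the log2 difference of *Obp51a* between heads and thoraces went from 8.28 to -1.46 and that of *Obp99a* from 2.24 to -0.63. The 0 members higher in *Act88F-GS-Gal4* than in w1118 control thoraces became 1 with DESeq2's size factors, 2 without the filter, 3 with DESeq2, 1 with the unequal-variance test and 1 in 1 fit of all 18 samples. Over all genes 3425, 4105, 3854, 2186 and 3056 were then higher instead of 2555. The 19 lower members became 13 to 23 when 1 sample was left out, with 1567 to 4750 lower over all genes instead of 4304. The cause of these changes was not tested, except that leaving out samples leaves fewer samples and changes which genes pass the filter on low counts.

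In w1118 thoraces, the stock whose numbers were taken to pair the libraries, the replicate block changed no call. In the interaction the block was set by number within each stock, and so held these w1118 pairs. It ended the call of *Obp19a* there, the only one. Within the other stocks and between stocks the libraries share only a number. The block ended the calls of *Obp99c* in *Act88F-GS-Gal4* thoraces and of *Obp19a*, *Obp50a*, *Obp57a*, *Obp57b*, *Obp59a* and *lush* in heads. It also ended those of *Obp19a*, *Obp47a*, *Obp50a*, *Obp51a*, *Obp56d*, *Obp58b* and *Obp99a* between heads and thoraces and of *Obp44a*, *Obp50a*, *Obp56c*, *Obp56e* and *Obp56i* between the control stocks. Leaving out *Act88F-GS-Gal4* RU486 replicates 1 and 3, or head controls 1 and 2, was chosen after the data were seen and left 1 library in the group. Of 1133 values of single genes under the alternatives, 918 kept their direction and call, 213 kept their direction and lost the call, and 2 changed sign. Scaling by total counts moved the median log2 fold change of all genes from 0.01 to 0.18 in *Act88F-GS-Gal4* thoraces, where 2631 genes were then higher and 1264 lower instead of 1332 and 2112. It moved the interaction's median from 0.06 to 0.27 (1353 and 851 instead of 559 and 1545) and that of *Act88F-GS-Gal4* against w1118 controls from -0.12 to -0.36 (1750 and 6419 instead of 2555 and 4304), and upper quartile scaling moved that of heads against thoraces from 0.27 to 0.14 (3654 and 3569 instead of 4179 and 2749). The unequal-variance test was not run for the interaction or for heads against thoraces. For 11 members too few reads were counted for a test in any comparison.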
